A study of Mus musculus with 20 samples.

Results

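Gene expression in skeletal muscle was compared between 5 *Adck2*+/- samples and 5 wild type (WT) samples. The members were taken by the tissue label, which gave 10 muscle arrays of the 20 arrays in the series, and the 10 liver arrays entered only where the tissues were set side by side. *Adck2*+/- mice carried 1 deleted and 1 intact *Adck2* allele in every tissue, whereas WT mice carried both intact alleles, and the labels name no treatment. The line came from C57BL/6-derived embryonic stem cell clones of a knockout repository, and the labels give the strain as B6N for both genotypes. The methods describe male mice. The tissue is the gastrocnemius (spelled gastronomius in the source label), a mixed, mostly fast hindlimb muscle. The labels give an age of 3 years for every mouse, whereas the methods give a younger adult age for the arrays, and the 2 ages could not be reconciled. Total RNA was converted to biotin-labelled cRNA and hybridised to Illumina bead arrays, on which each probe is carried by many beads and gives a mean signal. For both tissues the methods name 5 mice of each genotype, whereas the labels number the arrays as replicates 1 to 5 without tying an array to a mouse, so the p-values measure the spread between these arrays. Values are normalized log2 signals, given for arrays 1 to 5 of each genotype in that order.

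ADCK2 belongs to the aarF domain family of atypical protein kinases, with COQ8A and COQ8B, which act in the mitochondrial synthesis of coenzyme Q. Coenzyme Q carries electrons from complexes I and II, and from the flavoproteins of fatty acid β-oxidation, to complex III of the respiratory chain. Gastrocnemius fibres depend on sarcomeres anchored at the Z-disk, on junctions of transverse tubule and sarcoplasmic reticulum that release calcium, and on the dystrophin complex that ties the fibre membrane to the extracellular matrix. The comparison addresses which transcripts of these and other systems differ in muscle when 1 *Adck2* allele is lost.

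The promoters of 4 genes that passed the test are shown because they hold the binding sequence of a muscle transcription factor upstream of a gene of the fibre, and were chosen after that search. *Synpo2*, which encodes an actin-bundling Z-disk protein, and *Fbxo40*, which encodes a muscle F-box protein of a ubiquitin ligase, were higher in *Adck2*+/- muscle. *Kcng4*, which encodes a modifying subunit of voltage-gated potassium channels, and *Cav3*, which encodes the caveolin of the fibre membrane, were lower. Each sequence is the 250 bases before the transcription start in RefSeq, build GRCm38.p6, written 5′ to 3′ on the gene's strand. Capitals in *Synpo2* (chr3:123236150-123236399, - strand) mark a sequence of 10 letters bound by MEF2 factors, which was searched exactly as it stands there. Capitals in *Fbxo40* (chr16:36990468-36990717, - strand), *Kcng4* (chr8:119635681-119635930, - strand) and *Cav3* (chr6:112459255-112459504, + strand) mark CAGCTG, an E-box bound by myogenic factors such as MyoD.
Synpo2: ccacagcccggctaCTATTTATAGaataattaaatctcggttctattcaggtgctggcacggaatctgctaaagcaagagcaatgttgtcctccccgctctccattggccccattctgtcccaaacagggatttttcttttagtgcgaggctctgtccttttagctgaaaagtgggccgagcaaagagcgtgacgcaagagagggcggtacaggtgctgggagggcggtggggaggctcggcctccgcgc
Fbxo40: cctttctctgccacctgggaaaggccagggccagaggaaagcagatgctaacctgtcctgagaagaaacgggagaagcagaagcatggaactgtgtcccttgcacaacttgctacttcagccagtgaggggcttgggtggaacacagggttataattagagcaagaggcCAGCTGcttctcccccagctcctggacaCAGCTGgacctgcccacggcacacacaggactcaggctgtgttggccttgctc
Kcng4: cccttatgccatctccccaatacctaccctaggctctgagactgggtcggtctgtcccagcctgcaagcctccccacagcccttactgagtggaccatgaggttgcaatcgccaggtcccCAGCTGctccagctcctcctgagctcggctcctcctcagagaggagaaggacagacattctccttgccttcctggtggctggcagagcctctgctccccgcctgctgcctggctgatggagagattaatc
Cav3: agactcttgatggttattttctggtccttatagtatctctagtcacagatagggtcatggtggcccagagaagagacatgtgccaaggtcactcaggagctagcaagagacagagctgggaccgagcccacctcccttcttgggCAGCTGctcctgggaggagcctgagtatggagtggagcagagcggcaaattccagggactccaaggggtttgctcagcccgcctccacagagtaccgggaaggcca
The MEF2 sequence of *Synpo2* began 236 bases before the start, and the E-boxes began 81 and 53 bases before it in *Fbxo40*, 130 in *Kcng4* and 106 in *Cav3*. Both motifs were searched on both strands, and CAGCTG reads the same on each. A promoter was matched by symbol for 86 of the 104 genes called higher, 49 of the 55 called lower and 6866 of the 8424 genes tested. CAGCTG stood in 9 of the 86 (10.5%), in 11 of the 49 (22.4%) and in 773 of all 6866 (11.3%). The MEF2 sequence of *Synpo2* stood in 1 of the 86, in none of the 49 and in 10 of all 6866 (0.146%). GGGCGG, the core of the GC box, stood in 53 of the 86 (61.6%), in 28 of the 49 (57.1%) and in 4084 of all (59.5%). A match is a string in these letters and not a measured binding site, and these shares were not tested.

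Between 11884 and 12597 probes (median 12080) had a detection p under 0.05 on the *Adck2*+/- arrays and between 11626 and 12604 (median 12292) on the WT arrays, and the correlation of 2 muscle arrays over the genes tested ranged from 0.958 to 0.989. All 13 markers of the muscle fibre on the array were measured, the Y-linked genes *Eif2s3y*, *Kdm5d* and *Uty* were detected on all 10 arrays and *Xist* on none. The *Adck2* probe was detected on 2 *Adck2*+/- arrays and 1 WT array, with log2 signals of 5.04, 5.41, 4.92, 5.42 and 4.97 on the *Adck2*+/- arrays, against 5.06, 4.97, 5.58, 5.18 and 4.67 on the WT arrays. The values overlapped, and the probe was too dim to check the genotype labels. 3 probes of *Nnt*, a gene disrupted in the C57BL/6J substrain, were not well above background on any of the 10 arrays. Several arrays stood apart. Hepatocyte transcripts were high on *Adck2*+/- 4 and WT 1, adipocyte transcripts were high on *Adck2*+/- 5, and slow fibre transcripts were low on WT 3.

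At a Benjamini-Hochberg adjusted p under 0.05 in limma, 104 of 8424 genes (1.23%) were higher in *Adck2*+/- muscle than in WT muscle and 55 (0.653%) were lower, 159 in all (1.89%). With median scaling in place of quantile normalization the split was 79 higher and 231 lower, and with all 20 arrays in the fit it was 140 and 354. Log2 fold changes ranged from 0.45 to 1.53 among the genes called higher (median 0.85) and from −1.90 to −0.44 among those called lower (median −0.66), and the median over all genes was −0.01. The 5 *Adck2*+/- values lay wholly above the 5 WT values for 100 of the 104 genes, with *Pdcd4*, *Arnt*, *Bmi1* and *Fbxo40* as exceptions, and wholly below for 52 of the 55, with *Isg15*, *Tmem267* and *Mettl21c* as exceptions. Over all genes the values did not overlap for 271 in the higher direction (3.22%) and 254 in the lower (3.02%), 525 together (6.23%). The probe was detected on all 10 arrays for 90 of the 104 genes and 48 of the 55, against 7178 of all 8424. For 6 of the 104 and 4 of the 55 it was detected on at most 2 arrays of the genotype with the lower signal. Single arrays weighed on these counts. WT 3 was the lowest WT array for 82 of the 104 genes (78.8%), against 2100 of all 8424 (24.9%), and *Adck2*+/- 3 was the highest *Adck2*+/- array for 66 (63.5%), against 1617 of all (19.2%). The count of genes called higher was 51, 50, 29 and 39 without *Adck2*+/- 1, 2, 3 and 4, was 221 without *Adck2*+/- 5, and was 56, 103, 64, 50 and 13 without WT 1 to 5. The count called lower was 35, 18, 7, 13 and 476 without *Adck2*+/- 1 to 5, and 14, 52, 13, 11 and 1 without WT 1 to 5.

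13 of the 104 genes and 1 of the 55 were called in each of the 10 fits that left out 1 array. They were *Usp15*, *Srp54a*, *Ddx5*, *Hnrnph2*, *Car3*, *Eif4g2*, *Rmnd5a*, *Sec23a*, *Hacl1*, *Larp4b*, *Kat2b*, *Efr3a* and *C1s1*, and *Sema7a* among the lower genes. All of the other 91 higher and 54 lower calls were lost without WT 5, at adjusted p-values of 0.0515 to 0.174, and 1573 genes had an unadjusted p under 0.05 in that fit. These counts are of the brightest probe of each gene, and the fit of each probe by itself was not repeated without WT 5. Without WT 3 and *Adck2*+/- 5 together, 82 of the 104 and 29 of the 55 were still called, among 109 higher and 94 lower genes. Without WT 1 and *Adck2*+/- 4, the arrays with the most hepatocyte transcript, 16 of the 104 and 1 of the 55 were, among 16 higher and 2 lower genes.

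**Figure D1:**
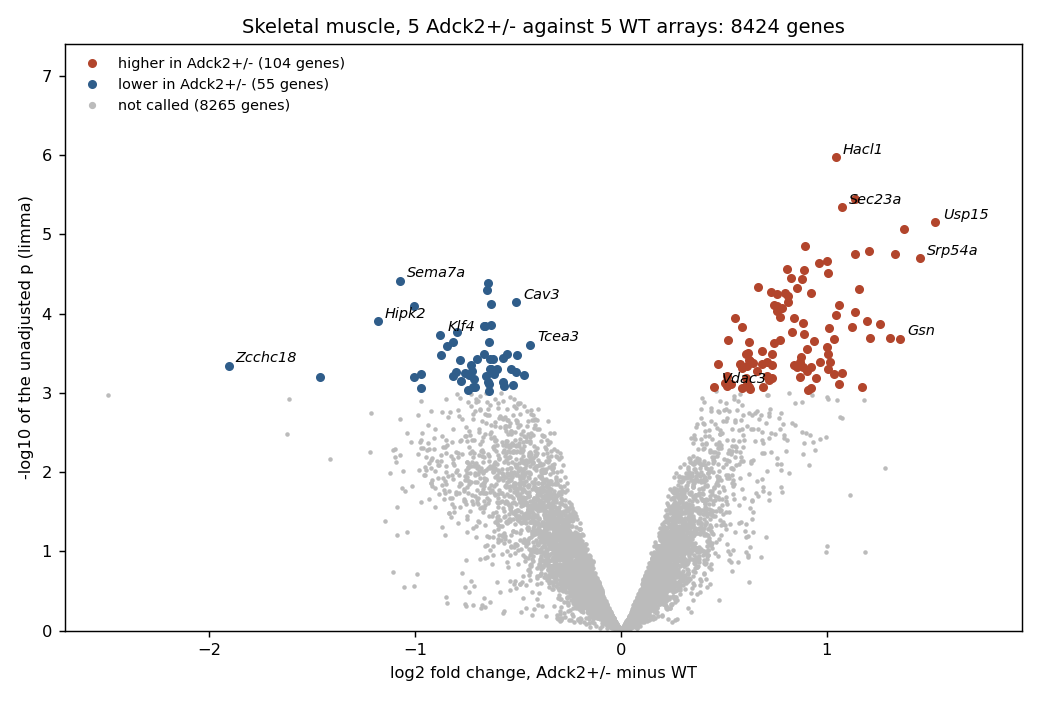
Log2 fold change of each of the 8424 genes in skeletal muscle, *Adck2*+/- minus WT (x axis), against −log10 of its unadjusted p from limma (y axis). Points are genes, 104 called higher on the right and 55 called lower on the left. *Usp15* lies farthest right at 1.53 and *Zcchc18*, near background on 4 of 5 *Adck2*+/- arrays, farthest left among the genes called, at −1.90.

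The largest rise was that of *Usp15*, which encodes a deubiquitinating enzyme. Its log2 signals were 6.99, 7.09, 7.72, 7.34 and 7.005 on the *Adck2*+/- arrays, against 6.14, 5.90, 5.08, 5.77 and 5.62 on the WT arrays. The lowest *Adck2*+/- array lay above the highest WT array, and the gene rose (log2 fold change 1.53, SE 0.20, adjusted p = 0.0144; n = 5 per genotype here and below). Its probe was not detected on all 10 arrays, and its signal on WT 3 was near background. Under the alternatives its log2 fold change ran from 0.67 to 1.63. *Srp54a*, which encodes the GTPase subunit of the signal recognition particle, had 9.22, 9.43, 9.93, 9.88 and 9.51 on the *Adck2*+/- arrays, against 8.31, 8.46, 7.37, 8.39 and 8.18 on the WT arrays (log2 fold change 1.45, SE 0.21, adjusted p = 0.0163). WT 3 was the lowest WT array in both genes. *Ddx5*, an RNA helicase and transcriptional co-regulator that takes part in muscle differentiation, had 8.01, 8.30, 8.47, 8.34 and 8.30 on the *Adck2*+/- arrays, against 6.78, 6.89, 6.61, 7.63 and 6.63 on the WT arrays (log2 fold change 1.37, SE 0.18, adjusted p = 0.0144). WT 4 was the highest of the WT arrays and still below all *Adck2*+/- arrays. *Gsn*, which encodes gelsolin, a protein that severs actin filaments, had 7.34, 7.37, 8.27, 7.504 and 7.68 on the *Adck2*+/- arrays, against 7.06, 6.07, 5.56, 6.31 and 6.39 on the WT arrays (log2 fold change 1.35, SE 0.26, adjusted p = 0.0294). Its WT values spread widely, with WT 3 lowest and WT 1 nearest to the *Adck2*+/- values. *Car3*, the carbonic anhydrase abundant in slow fibres and adipocytes, had 13.89, 14.01, 14.30, 13.96 and 13.93 on the *Adck2*+/- arrays, against 12.44, 13.37, 12.46, 12.87 and 12.92 on the WT arrays (log2 fold change 1.21, SE 0.17, adjusted p = 0.0163). The genotypes did not overlap in *Car3*. The list means of the slow fibre and the adipocyte markers overlapped between genotypes, and 9 of 11 slow fibre markers lay above 0 (median 0.37). Their part in the rise of *Car3* was not tested. *Hacl1*, a peroxisomal lyase of fatty acid α-oxidation, had 6.29, 5.99, 6.12, 6.31 and 6.04 on the *Adck2*+/- arrays, against 5.12, 5.17, 5.02, 4.88 and 5.34 on the WT arrays (log2 fold change 1.04, SE 0.11, adjusted p = 0.00896). Its probe was detected on all 5 *Adck2*+/- arrays and on 1 WT array, and with the WT arrays set to no less than their lowest detected signal it was at least 1.81-fold higher. It was called without the detection filter (adjusted p = 0.0101) and not in the fit of all 20 arrays (adjusted p = 0.212).

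Other large rises were in genes of varied roles. *Rbbp7*, a histone-binding subunit of several chromatin complexes, had 10.13, 10.39, 10.56, 10.36 and 10.09 on the *Adck2*+/- arrays, against 9.19, 9.35, 8.01, 9.57 and 8.87 on the WT arrays (log2 fold change 1.31, SE 0.25, adjusted p = 0.0294). *Opa1*, the GTPase that fuses the mitochondrial inner membrane, had 8.31, 8.24, 8.40, 8.24 and 8.23 on the *Adck2*+/- arrays, against 7.42, 7.49, 6.11, 7.39 and 6.97 on the WT arrays (log2 fold change 1.21, SE 0.23, adjusted p = 0.0294). The *Adck2*+/- values of *Opa1* lay close together, whereas the WT values spread widely with WT 3 lowest. *Gpam*, which encodes the mitochondrial enzyme of the first step of triglyceride synthesis, had 8.70, 8.67, 8.99, 9.19 and 8.53 on the *Adck2*+/- arrays, against 7.89, 7.98, 7.05, 7.58 and 7.80 on the WT arrays (log2 fold change 1.16, SE 0.19, adjusted p = 0.0177). *Jmy*, an actin-nucleating p53 cofactor, was at a log2 fold change of 1.26 (adjusted p = 0.0243, given in brackets below after other log2 fold changes), *Gpbp1l1*, a relative of a factor that binds GC-rich promoters, at 1.20 (0.0241), *Cr1l*, a membrane regulator of complement, at 1.17 (0.0469), and *Rmnd5a*, a subunit of a ubiquitin ligase, at 1.13 (0.0128). *C1s1*, which encodes a serine protease of the classical complement pathway, rose by 0.80 (0.0177) and *Efr3a*, which holds a lipid kinase at the plasma membrane, by 0.89 (0.0167). All of these genes were detected on every *Adck2*+/- array, but *Jmy*, *Gpbp1l1* and *Rmnd5a* were not detected on every WT array. Under the alternatives their lowest log2 fold changes were 0.45, 0.47 and 0.45.

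**Figure D2:**
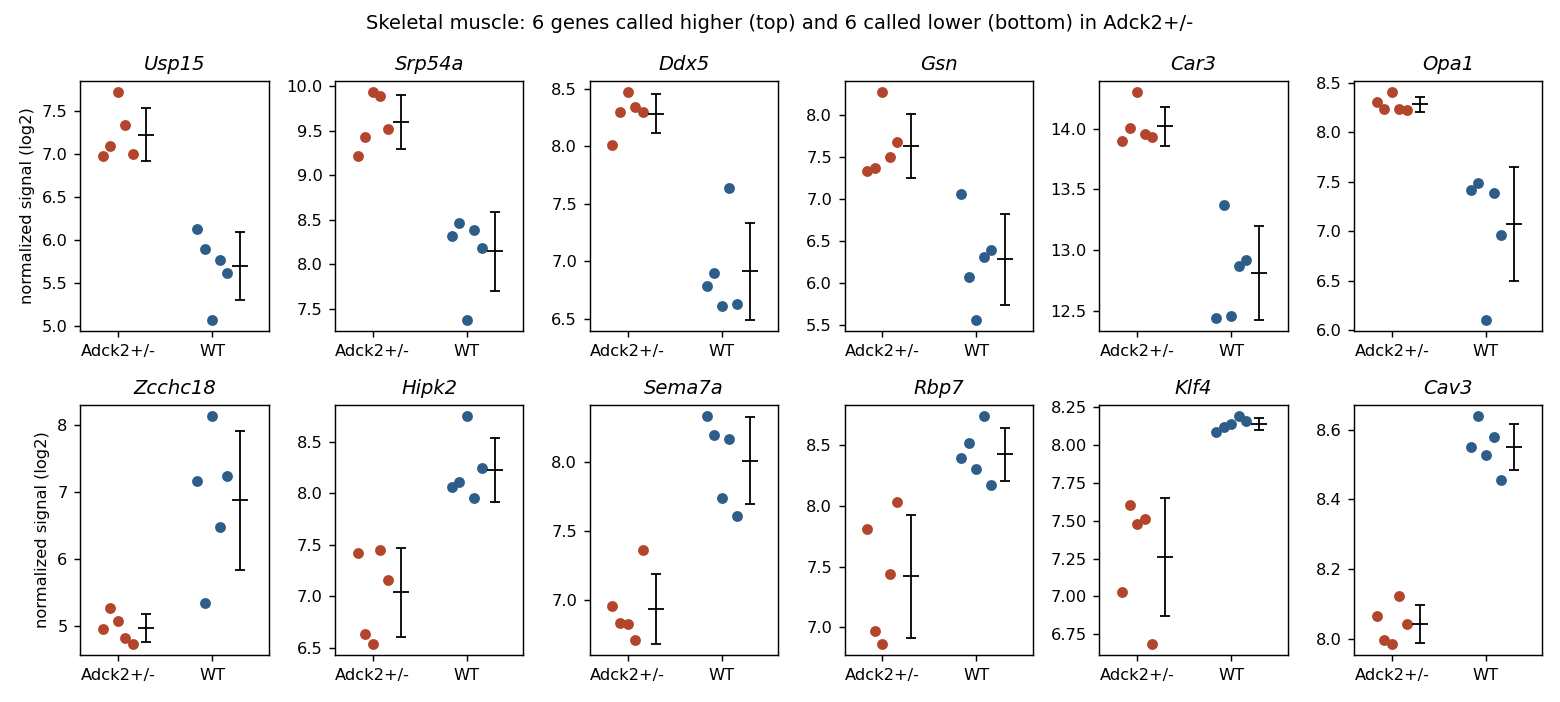
Normalized log2 signal (y axis) of 12 genes on the 5 *Adck2*+/- arrays (left in each panel) and the 5 WT arrays (right), each point an array, with mean and SD as black bars. The *Adck2*+/- points lie wholly above the WT points for the 6 upper genes and wholly below for the 6 lower genes, by the narrowest margin in *Zcchc18*, where the highest *Adck2*+/- array is at 5.27 and the lowest WT array at 5.35.

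The lowest log2 fold change among the genes called was that of *Zcchc18*, an X-linked zinc finger gene of the retrotransposon-derived family. Its log2 signals were 4.95, 5.27, 5.07, 4.82 and 4.73 on the *Adck2*+/- arrays, against 7.16, 5.35, 8.14, 6.48 and 7.25 on the WT arrays (log2 fold change −1.90, SE 0.40, adjusted p = 0.0383). The fall was uneven, since WT 2 lay next to the *Adck2*+/- arrays. The probe was detected on 1 of 5 *Adck2*+/- arrays and on all 5 WT arrays, and by the same rule the gene was at least 2.97-fold lower. Without the detection filter it was not called (adjusted p = 0.0713). *Hipk2*, a nuclear kinase that acts on p53 and homeodomain proteins, had 7.42, 6.63, 6.54, 7.45 and 7.16 on the *Adck2*+/- arrays, against 8.06, 8.11, 8.75, 7.95 and 8.24 on the WT arrays (log2 fold change −1.18, SE 0.21, adjusted p = 0.0241). *Sema7a*, a membrane-anchored semaphorin that binds integrins, had 6.96, 6.83, 6.83, 6.71 and 7.36 on the *Adck2*+/- arrays, against 8.33, 8.19, 7.74, 8.17 and 7.61 on the WT arrays (log2 fold change −1.07, SE 0.17, adjusted p = 0.0177). *Klf4*, a Krüppel-like transcription factor, had 7.03, 7.60, 7.48, 7.51 and 6.69 on the *Adck2*+/- arrays, against 8.09, 8.12, 8.14, 8.19 and 8.16 on the WT arrays (log2 fold change −0.88, SE 0.16, adjusted p = 0.0279). The WT values of *Klf4* lay close together (SD 0.04) and the *Adck2*+/- values did not (SD 0.39). Its other probes gave −0.28 and −0.31 and were not called. *Rbp7*, a cellular retinol-binding protein found in endothelium and fat, had 7.81, 6.97, 6.87, 7.44 and 8.03 on the *Adck2*+/- arrays, against 8.40, 8.52, 8.30, 8.74 and 8.17 on the WT arrays (log2 fold change −1.004, SE 0.22, adjusted p = 0.0415). *Zbtb38*, a zinc finger protein that binds methylated DNA, was at −0.97 (0.0407), *Purb*, a single-strand DNA-binding repressor of muscle actin and myosin genes, at −0.82 (0.0294), *Isg15*, an interferon-induced ubiquitin-like protein, at −0.87 (0.0352) and *Fscn1*, which bundles actin filaments, at −0.80 (0.0269). *Tmem267* (−1.46), *Nudt14*, a UDP-sugar hydrolase (−0.97), and *Opn1mw*, the cone opsin of middle wavelengths (−1.01), completed the 15 largest falls together with *Kcng4*, *Col6a2* and *Uchl1*, described below.

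Genes of the Z-disk and the calcium release unit were higher or lower one by one. Among Z-disk and scaffold genes, 30 were measured, of which 3 rose (10% of the list, against 1.23% of all genes), none fell and 27 did not pass (median 0.11). This and the other lists were chosen with earlier results of these data known, so their shares are not independent evidence. *Pdlim5* here, and *Srp54a*, *Ppp1cb* and *Rbbp7* in lists below, are also genes that the study chose on these samples. *Pdlim5*, a PDZ-LIM protein that brings protein kinases to the Z-disk, had 12.60, 12.77, 13.24, 12.70 and 12.43 on the *Adck2*+/- arrays, against 11.86, 12.08, 11.29, 12.03 and 11.78 on the WT arrays (log2 fold change 0.94, SE 0.18, adjusted p = 0.0294), and its other probes gave 1.08, 0.47 and −0.15. *Synpo2* had 9.68, 9.28, 10.03, 9.78 and 9.18 on the *Adck2*+/- arrays, against 8.75, 9.07, 8.08, 8.83 and 8.47 on the WT arrays (log2 fold change 0.95, SE 0.21, adjusted p = 0.0418), and *Ldb3*, a PDZ-LIM protein that binds α-actinin, was at 0.66 (0.0394). In all 3 genes WT 3 was the lowest array, and the mean of the list was −0.64 on WT 3 and −0.07 to 0.36 on the other 9 arrays. Of 35 genes of excitation, ion transport and calcium handling, *Jph1* and *Srl* rose (5.71%), *Jsrp1* fell (2.86%, against 0.653% of all genes) and 32 did not pass (median 0.10). *Jph1*, a junctophilin of the tubule and reticulum junction, had 10.96, 10.66, 11.26, 11.18 and 10.72 on the *Adck2*+/- arrays, against 10.15, 10.04, 9.88, 10.27 and 10.17 on the WT arrays (log2 fold change 0.86, SE 0.14, adjusted p = 0.0177). *Srl*, the calcium-binding sarcalumenin of the reticulum lumen, was at 0.92 (0.0385). *Jsrp1*, a reticulum protein that binds the voltage sensor and calsequestrin, had 9.96, 9.60, 9.94, 10.16 and 10.20 on the *Adck2*+/- arrays, against 10.58, 10.46, 10.88, 10.48 and 10.63 on the WT arrays (log2 fold change −0.63, SE 0.13, adjusted p = 0.0387). Of 25 genes of the thick and thin filaments none passed (median 0.06), with *Myh7*, of slow fibres, at 0.91 and an adjusted p of 0.103.

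At the fibre membrane, 1 of 18 measured genes of the dystrophin complex and sarcolemma rose (5.56%, against 1.23% of all genes). In this list 2 fell (11.1%, against 0.653% of all genes) and 15 did not pass (median −0.09). The 1 rise was *Pomt1*, which met the detection filter only through the *Adck2*+/- arrays. *Cav3* had 8.06, 7.997, 7.99, 8.12 and 8.04 on the *Adck2*+/- arrays, against 8.55, 8.64, 8.53, 8.58 and 8.46 on the WT arrays (log2 fold change −0.51, SE 0.09, adjusted p = 0.0195). Both groups were tight, with SDs of 0.05 in *Adck2*+/- and 0.07 in WT muscle, and did not overlap. *Col6a2*, a chain of the collagen VI that surrounds the fibre, had 7.29, 6.81, 6.55, 6.42 and 6.96 on the *Adck2*+/- arrays, against 8.02, 7.43, 7.65, 7.61 and 7.38 on the WT arrays (log2 fold change −0.81, SE 0.18, adjusted p = 0.0412). *Pomt1*, which starts the O-mannose glycans of dystroglycan, was detected on all 5 *Adck2*+/- arrays and on no WT array. Its mean log2 signal was 5.62 on the *Adck2*+/- arrays and 4.81 on the WT arrays, at least 1.26-fold higher when the WT arrays were set to their lowest detected signal (adjusted p = 0.0195). The other probe of *Pomt1* gave 0.43 and was not called (adjusted p = 0.0626 over all probes). *Coro2b*, an actin-binding coronin, was detected on no *Adck2*+/- array and on all 5 WT arrays. It averaged 5.09 on the *Adck2*+/- arrays and 5.65 on the WT arrays, at least 1.28-fold lower by the same rule (adjusted p = 0.035), and met the filter only through the WT arrays. Without the filter both genes were still called, *Pomt1* at an adjusted p of 0.0272 and *Coro2b* at 0.0437. *Kcng4*, whose promoter is shown above, had 9.74, 9.30, 9.28, 9.08 and 8.83 on the *Adck2*+/- arrays, against 10.004, 10.04, 10.44, 9.95 and 10.02 on the WT arrays (log2 fold change −0.84, SE 0.16, adjusted p = 0.0309). Its other, dimmer probe gave 0.50 and was not called, and the mean of both probes gave −0.17 (adjusted p = 0.658). Of 22 genes of muscle atrophy, *Fbxo40* rose (log2 fold change 0.91, SE 0.21, adjusted p = 0.049) and 21 did not pass (median 0.00). *Fbxo40* was 4.55% of that list. Of 17 myogenic factors and growth signals none passed (median 0.02), with *Eya4*, a transcriptional co-activator, at 0.55 (adjusted p = 0.054) and *Igf2* at −0.36 (0.0907). *Mettl21c*, a lysine methyltransferase of muscle, and *Tcea3*, a transcription elongation factor of muscle and heart, fell by 0.74 (0.0492) and 0.44 (0.0307) on the log2 scale.

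Calls among RNA-binding and translation factors were all higher. Of 95 measured splicing factors, hnRNPs and RNA helicases, 5 rose (5.26%, against 1.23% of all genes), none fell and 90 did not pass, and the list's median was 0.04. Besides *Ddx5*, the genes were *Hnrnph2*, *Hnrnpk*, *Hnrnpa2b1* and *Hnrnpa1*, which encode proteins that coat nascent RNA and steer splicing. *Hnrnph2* had 6.58, 6.96, 7.21, 6.43 and 6.95 on the *Adck2*+/- arrays, against 5.81, 5.81, 5.02, 5.63 and 5.22 on the WT arrays (log2 fold change 1.33, SE 0.19, adjusted p = 0.0163), and *Hnrnpk* had 9.62, 10.004, 10.26, 9.78 and 9.65 on the *Adck2*+/- arrays, against 8.99, 9.19, 8.16, 9.01 and 8.97 on the WT arrays (log2 fold change 0.999, SE 0.20, adjusted p = 0.0322). The probe of *Hnrnph2* was not detected on all 10 arrays, and its log2 fold change ran from 0.52 to 1.52 under the alternatives. *Hnrnpa2b1* was at 0.87 (0.0379) and *Hnrnpa1* at 0.72 (0.0432). The other probe of *Hnrnpk* gave 0.09, that of *Hnrnpa2b1* 0.11 and that of *Hnrnpa1* −0.06, and none of the 3 was called. Of 45 initiation and elongation factors of translation, 4 rose (8.89%), none fell and 41 did not pass (median 0.01). *Eef2*, which moves the ribosome along the mRNA, had 10.61, 10.63, 10.85, 10.15 and 10.33 on the *Adck2*+/- arrays, against 9.43, 9.69, 9.15, 9.73 and 9.54 on the WT arrays (log2 fold change 1.01, SE 0.15, adjusted p = 0.0173), and its other probes gave 0.88 and 1.04. *Eif4g2*, a scaffold of cap-independent initiation, had 10.08, 10.03, 10.52, 10.38 and 10.01 on the *Adck2*+/- arrays, against 9.31, 9.37, 8.57, 8.98 and 9.10 on the WT arrays (log2 fold change 1.14, SE 0.16, adjusted p = 0.0163), whereas its other probe gave −0.01. *Eif4b*, which assists the initiation helicase, was at 0.84 (0.0227), *Eif3c*, a core subunit of eIF3, at 0.71 (0.0379), and *Larp4b*, which binds mRNA and raises its translation, at 0.999 (0.0163). Of 52 genes of signal recognition, translocon and vesicle coats, *Srp54a* and *Sec23a* rose (3.85%) and 50 did not pass (median −0.04). *Sec23a*, of the COPII coat, had 9.27, 9.05, 9.54, 9.31 and 9.22 on the *Adck2*+/- arrays, against 8.30, 8.51, 7.85, 8.15 and 8.19 on the WT arrays (log2 fold change 1.07, SE 0.14, adjusted p = 0.0128).

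In the ubiquitin system, single genes were called, in both directions. Of 40 deubiquitinases *Usp15* rose (2.5%, against 1.23% of all genes) and *Uchl1* fell (2.5%, against 0.653% of all genes), with a median of 0.02. *Uchl1*, a ubiquitin hydrolase of neurons that is also present in muscle, had 6.26, 5.34, 5.88, 5.56 and 5.95 on the *Adck2*+/- arrays, against 6.36, 6.44, 6.64, 6.69 and 6.87 on the WT arrays (log2 fold change −0.80, SE 0.17, adjusted p = 0.0402). Of 42 proteasome subunits and assembly factors *Psmd5*, which assembles the base of the regulatory particle, rose (log2 fold change 1.04, SE 0.22, adjusted p = 0.0407). It was 2.38% of the list, and 41 did not pass (median −0.09). None of 49 genes of ubiquitin conjugation and cullin ligases passed, although 38 lay above 0 (median 0.10), with *Ube2g2* at 1.001 (adjusted p = 0.0548) and *Ube2d3* at 0.48 (0.0642), both ubiquitin-conjugating enzymes. Of 33 protein phosphatase genes 3 rose (9.09%, against 1.23% of all genes) and 1 fell (3.03%, against 0.653%), among them *Pdp1*, described below. *Ppp1cb*, a catalytic subunit of protein phosphatase 1, had 12.07, 11.94, 12.49, 12.09 and 12.14 on the *Adck2*+/- arrays, against 11.26, 11.32, 10.25, 11.23 and 10.98 on the WT arrays (log2 fold change 1.14, SE 0.20, adjusted p = 0.0211). *Ppp2r3c*, a regulatory subunit of phosphatase 2A, was at 0.61 (0.035), and *Ppp2r5d*, another, was lower, at −0.51 (0.0402). Of 56 chromatin genes *Rbbp7*, *Kat2b* and *Arid4b* rose (5.36%) and 53 did not pass (median −0.02). *Kat2b*, a histone acetyltransferase that acetylates MyoD, had 8.71, 8.88, 9.05, 8.94 and 8.90 on the *Adck2*+/- arrays, against 7.98, 8.27, 7.63, 8.02 and 8.11 on the WT arrays (log2 fold change 0.89, SE 0.13, adjusted p = 0.0163), and *Arid4b*, of a histone deacetylase complex, was at 0.88 (0.0177). *Nr3c1*, the glucocorticoid receptor, rose by 0.89 (0.0277).

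Each list of mitochondria and lipid use held 1 call or none, where 1.23% of all genes rose and 0.653% fell. *Opa1* was the 1 call among 30 genes of mitochondrial import, dynamics and quality control (3.33%, median −0.03). Of 24 genes of the tricarboxylic acid cycle and pyruvate dehydrogenase, 21 lay above 0 (median 0.23). *Pdp1*, the phosphatase that activates pyruvate dehydrogenase, rose (log2 fold change 0.63, SE 0.13, adjusted p = 0.0375). It was 4.17% of the list, and 23 did not pass. *Vdac3*, a channel of the outer mitochondrial membrane, had 13.86, 13.89, 14.06, 13.83 and 13.78 on the *Adck2*+/- arrays, against 13.34, 13.499, 13.23, 13.48 and 13.59 on the WT arrays (log2 fold change 0.45, SE 0.10, adjusted p = 0.0469). *Acad8*, the isobutyryl-CoA dehydrogenase of valine breakdown, was at 0.88 (0.0243), and its other probe gave 1.03. *Fech*, which inserts iron into haem, was at 0.93 (0.0477), with 1.08 and 0.13 by its other probes, and *Hjv*, a co-receptor of muscle and liver that acts in iron balance, at 1.03 (0.0294). Of 19 genes of fatty acid β-oxidation 16 lay above 0 (47.8% of all genes did) and none passed by its brightest probe (median 0.26), with *Hadh*, which acts on hydroxyacyl-CoA, at 1.06 (adjusted p = 0.0674) and *Acadm*, the medium-chain dehydrogenase, at 0.47 (0.075). In the limma fit of each probe, the other probe of *Acadm* gave 1.30 and was called (adjusted p = 0.0243). The brightest was not called there (0.0517). The mean of the β-oxidation list, with each gene centred over the 10 arrays, was 0.29, 0.21, 0.21, 0.12 and 0.04 on *Adck2*+/- arrays 1 to 5, against 0.05, −0.08, −0.69, 0.01 and −0.17 on WT arrays 1 to 5. WT 3 lay far below the rest, and *Adck2*+/- 5 lay below WT 1. Of 34 genes of lipid handling *Gpam* alone passed (2.94%, median 0.14). Of 23 genes of glycolysis and glycogen none passed (median 0.12), with *Gys1*, the glycogen synthase of muscle, at 0.88 (adjusted p = 0.0787). Of 13 genes of coenzyme Q synthesis and the ADCK family none passed (median 0.09), with *Fdps*, of the mevalonate pathway, at −0.34 (0.112) and *Pptc7*, a mitochondrial phosphatase, at −0.49 (0.132).

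Subunits of the respiratory chain and the ribosomes lay mostly below 0, with no call, where 1.89% of all genes were called. The counts below 0 were 28 of 33 for complex I (median −0.41), 17 of 25 for complexes II, III and IV with cytochrome c (−0.34), 14 of 16 for the ATP synthase (−0.45), 47 of 56 for the cytosolic ribosome (−0.58) and 54 of 70 for the mitochondrial ribosome (−0.19), against 4400 of 8424 genes (52.2%). Members of the smallest p included *Ndufs6* of complex I at −0.76 (adjusted p = 0.0801), *Uqcr10* of complex III at −0.50 (0.131), *Atpif1*, the inhibitor of the ATP synthase, at −0.85 (0.0833), and *Rpl22l1* at −0.85 (0.0557). *Atp5a1*, the α subunit of the ATP synthase, lay at 0.38 (0.102). The mean of the complex I list was −0.20, −0.63, −0.49, 0.05 and 0.25 on *Adck2*+/- arrays 1 to 5, against 0.38, 0.06, 0.15, 0.32 and 0.11 on WT arrays 1 to 5. *Adck2*+/- 1, 2 and 3 lay below every other array, and *Adck2*+/- 4 and 5 did not. The cytosolic ribosome had the same 3 arrays lowest, with −0.33, −0.74, −0.53, 0.09 and 0.30 on *Adck2*+/- arrays 1 to 5, against 0.37, 0.04, 0.39, 0.24 and 0.17 on WT arrays 1 to 5. The median genomic spans of these 5 lists ranged from 3.31 kb in the cytosolic ribosome to 7.8 kb in complex I, against 21.4 kb over all genes tested.

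Genes of the extracellular matrix lay mostly below 0. Of 33 measured collagen and matrix genes, 3 fell (9.09%, against 0.653% of all genes), none rose, 30 did not pass and 28 lay below 0 (median −0.35). *Lamb2*, the laminin β2 chain of the neuromuscular junction and basement membrane, had 9.09, 8.97, 8.70, 8.94 and 9.03 on the *Adck2*+/- arrays, against 9.43, 9.71, 9.60, 9.55 and 9.71 on the WT arrays (log2 fold change −0.65, SE 0.11, adjusted p = 0.0177). *Col15a1*, a collagen of the basement membrane zone, had 7.53, 7.76, 7.03, 7.63 and 7.76 on the *Adck2*+/- arrays, against 8.21, 8.28, 8.21, 8.56 and 8.06 on the WT arrays (log2 fold change −0.72, SE 0.15, adjusted p = 0.0394). *Col6a2* was the third. *Pcolce*, which enhances procollagen processing, also fell (log2 fold change −0.64, SE 0.10, adjusted p = 0.0177). The mean of the matrix list was −0.07, 0.01, −0.36, −0.26 and −0.12 on *Adck2*+/- arrays 1 to 5, against 0.32, 0.14, 0.06, 0.20 and 0.08 on WT arrays 1 to 5. Every *Adck2*+/- array lay below every WT array. In this bulk RNA, fewer cells of a type and less RNA per cell cannot be told apart. Among 11 measured fibroblast and tendon markers *Gsn* rose (9.09%, against 1.23% of all genes) and 8 lay below 0. The list mean was −0.28 to 0.15 on the *Adck2*+/- arrays and −0.24 to 0.46 on the WT arrays. *Gpx7*, a glutathione peroxidase of the endoplasmic reticulum, was the 1 fall among 36 redox genes, 2.78% of them (log2 fold change −0.63, SE 0.13, adjusted p = 0.0387). *Klf4* was the 1 call among 25 immediate early genes and Krüppel-like factors (4%). None of 42 chaperone genes passed, with *Hspb2* and *Hspb1*, small heat shock proteins of muscle, at −0.70 (adjusted p = 0.0557) and −0.51 (0.0629).

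**Figure D3:**
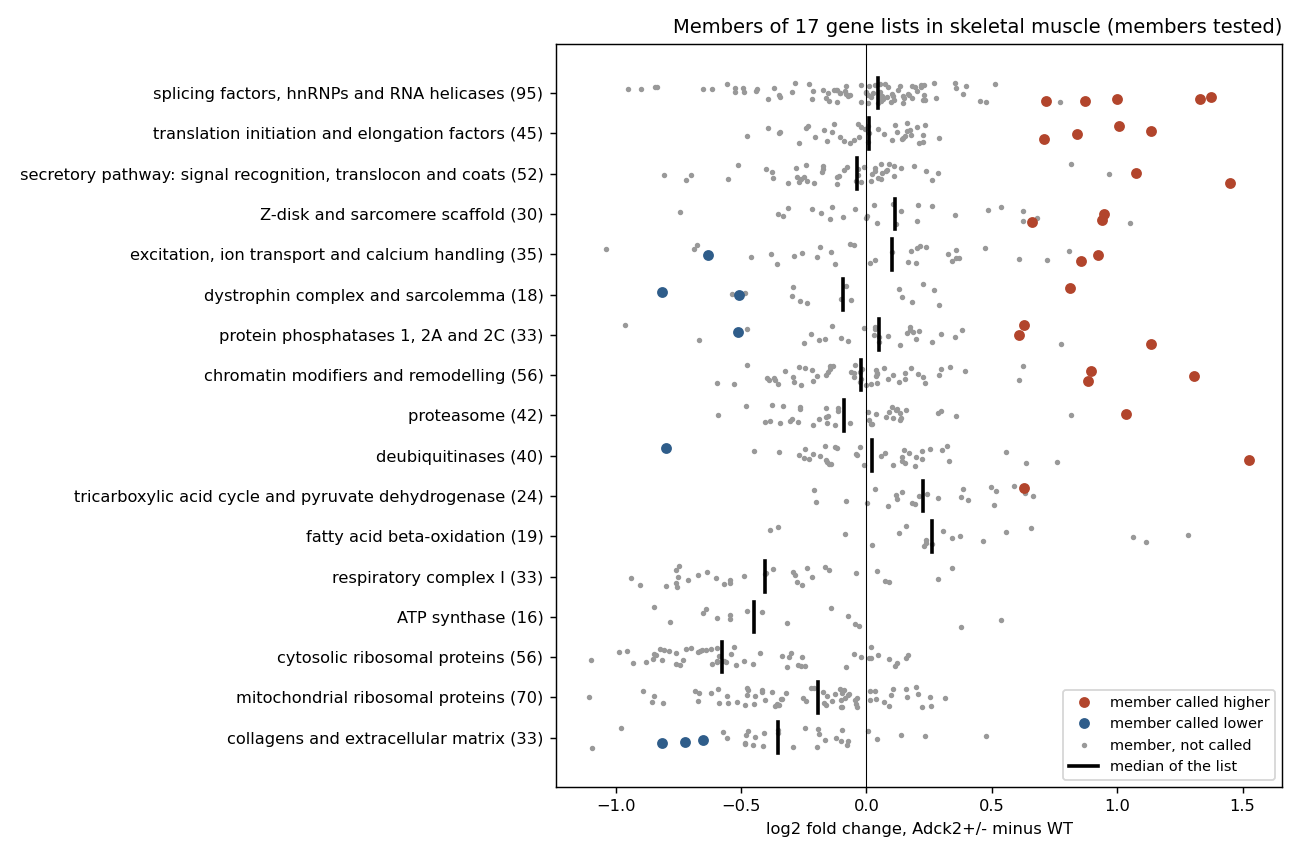
Log2 fold change, *Adck2*+/- minus WT (x axis), of every measured member of 17 gene lists (rows, with the number measured). Red points are members called higher, blue points members called lower, grey points members not called, and black bars the list medians. Red points sit in the upper rows, such as the 5 of 95 splicing genes, the matrix row at the bottom holds 3 blue points, and the rows of ribosome and respiratory chain hold grey points only, most of them below 0.

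Markers of other cell types varied widely between arrays. Of 13 hepatocyte markers on the array 10 were measured and *Alb*, *Fgb* and *Tat* were not, and none passed. The list mean was −1.69, −0.49, −1.32, 3.21 and −0.71 on *Adck2*+/- arrays 1 to 5, against 1.63, −1.74, 0.48, 0.38 and 0.25 on WT arrays 1 to 5. *Adck2*+/- 4 and WT 1 were highest, 1 of each genotype, and the summed linear signal of the list ranged from 585 to 15400 on the *Adck2*+/- arrays and from 467 to 5954 on the WT arrays. Of 11 adipocyte markers 8 were measured, while *Fabp4*, *Retn* and *Pck1* were not, and the mean was −0.56, −0.19, −0.75, −0.48 and 1.66 on *Adck2*+/- arrays 1 to 5, against 0.62, −1.18, 0.61, 0.04 and 0.22 on WT arrays 1 to 5. The summed signal ranged from 859 to 6715 on the *Adck2*+/- arrays and from 614 to 3248 on the WT arrays, with *Adck2*+/- 5 highest. Of 11 slow fibre markers all were measured and none passed, 9 lay above 0 (median 0.37), and the mean was 0.19, 0.03, 0.30, 0.10 and 0.18 on *Adck2*+/- arrays 1 to 5, against 0.19, 0.29, −1.39, 0.23 and −0.13 on WT arrays 1 to 5. WT 3 lay below all other arrays, and their summed signal ranged from 63670 to 77950 on the *Adck2*+/- arrays and from 27690 to 80050 on the WT arrays. The part of these transcripts in the calls was not tested beyond the fits without those arrays, given above.

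Of 9 satellite cell markers, *Pax7*, *Myf5* and *Calcr* were not detected and 6 were measured. 1 of these, *Notch3*, a Notch receptor that is also found in pericytes and smooth muscle, fell, with 8.08, 7.41, 7.47, 8.14 and 7.81 on the *Adck2*+/- arrays, against 8.70, 8.35, 8.56, 8.42 and 8.46 on the WT arrays (log2 fold change −0.71, SE 0.16, adjusted p = 0.0419). *Notch3* was 16.7% of the measured list, where 0.653% of all genes fell. The mean of the list was −0.27 to 0.08 on the *Adck2*+/- arrays and −0.00 to 0.28 on the WT arrays. Of 10 smooth muscle and pericyte markers 7 lay below 0 and none passed. None of the markers of endothelium (11 measured), macrophages (10), Schwann cells and nerve (5) or red cells (3) passed, and all 8 lymphocyte markers on the array were undetected. The macrophage list was highest on *Adck2*+/- 5, at a mean of 0.64, with *Tyrobp* and *Aif1* undetected.

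**Figure D4:**
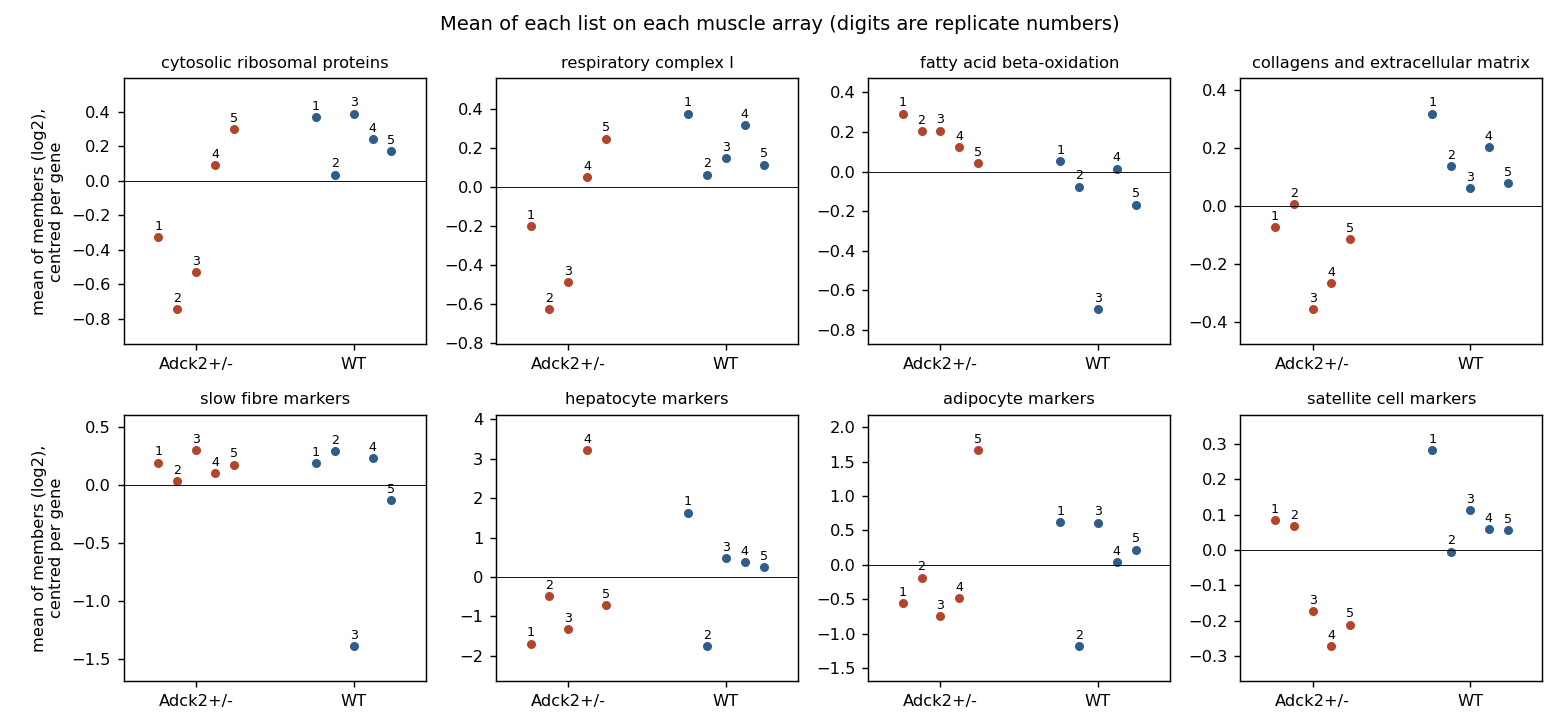
Mean log2 signal of the members of 8 lists, each gene centred over the 10 muscle arrays (y axis), with *Adck2*+/- arrays left and WT arrays right in each panel and replicate numbers above the points. *Adck2*+/- 2 and 3 lie lowest for ribosome and complex I, WT 3 lies lowest for β-oxidation (−0.69) and slow fibres (−1.39), and *Adck2*+/- 4 and 5 lie highest for hepatocyte (3.21) and adipocyte (1.66) markers.

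The result depended on which probe of a gene was read. 2205 genes had 2 or more kept probes, and the values above come from the probe with the highest mean signal. When each of the 11438 kept probes with a gene symbol was tested by itself, 464 (4.06%) were higher and 179 (1.56%) lower in *Adck2*+/- muscle. Of the 3014 probes that were not the brightest of their gene, 299 were higher (9.92%) and 36 lower (1.19%), whereas of the 8424 brightest probes 165 were higher (1.96%) and 143 lower (1.7%). Among the 2205 brightest probes with another kept probe, 60 were higher (2.72%) and 32 lower (1.45%). On each array, the mean of the other probes minus the brightest probe of the same gene, centred over the 10 arrays, was 0.0699, 0.0071, 0.0785, 0.0356 and 0.0426 on *Adck2*+/- arrays 1 to 5, against −0.028, −0.0015, −0.114, −0.0291 and −0.0609 on WT arrays 1 to 5. Every *Adck2*+/- array lay above every WT array, with a difference of 0.0935 on the log2 scale (exact permutation test, two-sided p = 0.00794, the smallest that 5 against 5 allows, and 0.0159 adjusted over 2 such measures). This measure was chosen after the probe results had been seen. With it as a covariate, no gene was called by limma, and 677 had an unadjusted p under 0.05. Its correlation with genotype over the 10 arrays was 0.819, so that such a fit can hardly separate them.

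In all, 458 probes of 416 genes were called although the brightest probe of their gene was not. The 10 of smallest p were all higher in *Adck2*+/- muscle. *Nup88*, of the nuclear pore, gave 1.34 (SE 0.14, adjusted p = 0.00643 over all probes) by that probe and 0.07 by its brightest. *Armc8*, of the same ubiquitin ligase as *Rmnd5a*, gave 1.52 and 0.15, *Eprs*, a tRNA synthetase, 1.503 and 0.25, *Cnot2*, of the deadenylase complex, 1.4996 and 0.03, and *Psme4*, a proteasome activator, 1.27 and 0.10. *Dnajb6*, a chaperone of the Z-disk, gave 1.14 and 0.32, and *Cul4a*, a cullin, 1.13 and −0.01. *Gpcpd1*, *Mgat4b* and *Prmt7* completed the 10. Among the 104 genes called higher, 42 had other kept probes, and 54 of these 59 probes lay above 0 (median 0.64). Among the 55 called lower, 7 had other probes, and 7 of these 9 lay below 0 (median −0.28). Over all genes, 2062 of the 3014 other probes had the sign of the brightest. Where the probes lie on their transcripts was not used here, so that a difference between transcript forms, between ends of a transcript, or in probe specificity was not tested.

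**Figure D5:**
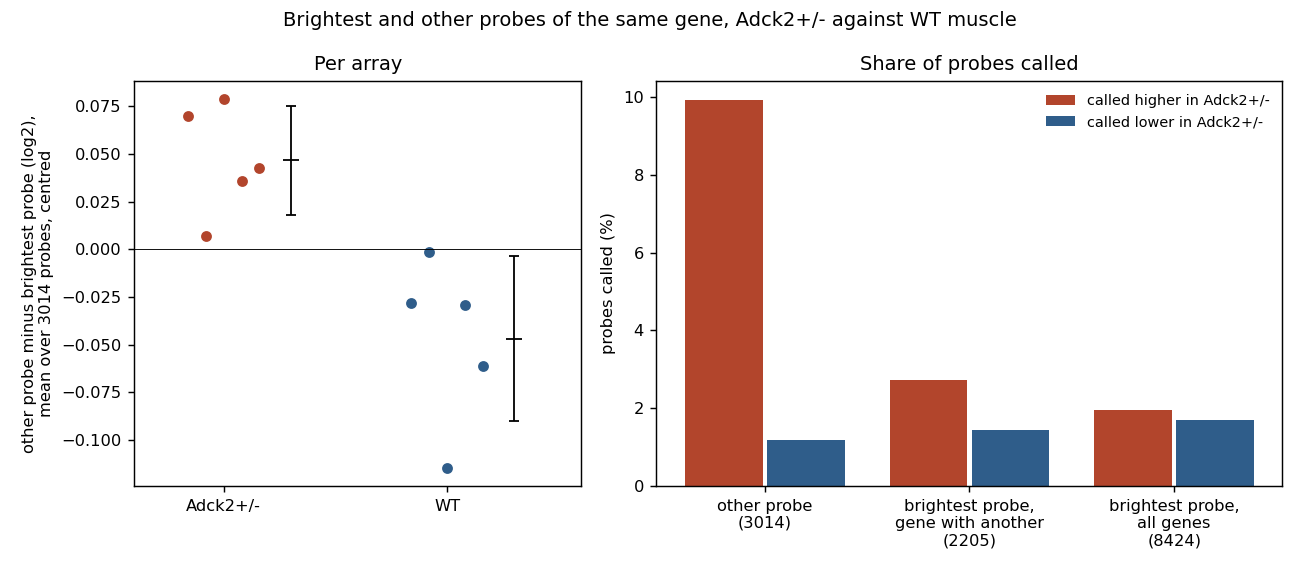
Left, mean difference between the other probes and the brightest probe of the same gene (log2, centred) on each muscle array, *Adck2*+/- left and WT right, with mean and SD as black bars. Right, share of probes called higher (red) or lower (blue) in *Adck2*+/- muscle. The 5 *Adck2*+/- arrays lie above the 5 WT arrays, and 9.92% of the other probes were called higher, against 1.96% of the brightest probes.

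The direction of the calls went with the length of the gene. The genes called higher had a median genomic span in RefSeq of 32.9 kb and those called lower of 14.5 kb, against 21.4 kb over all genes tested. With genes divided by span into 4 classes of like size, from shortest to longest, 12, 20, 35 and 37 genes were called higher and 18, 14, 12 and 11 lower, and the median log2 fold change was −0.11, −0.01, 0.03 and 0.01. On each array, the mean of the longest class minus that of the shortest, centred over the arrays, was 0.133, 0.227, 0.18, −0.0351 and −0.125 on *Adck2*+/- arrays 1 to 5, against −0.146, 0.0352, −0.0858, −0.122 and −0.0611 on WT arrays 1 to 5. *Adck2*+/- 1, 2 and 3 were the highest, *Adck2*+/- 4 and 5 lay within the WT range, and the difference of 0.152 did not pass (exact permutation two-sided p = 0.0873, also after adjustment over 2 measures). Of the 10 comparisons with 1 array left out, only that without *Adck2*+/- 5 passed, at a difference of 0.203 (exact permutation p = 0.0238). The span measure, like the probe measure, was chosen after the data had been seen. With each array's trend on span removed, 113 genes were called higher and 42 lower. With the span measure as a covariate, no gene was called higher and 1 lower, and 1235 had an unadjusted p under 0.05 in limma.

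Liver of the same genotypes was compared on the other 10 arrays, and in the liver fit 1 of 8484 genes was called (0.0118%), with 600 (7.07%) at an unadjusted p under 0.05. Of the 104 genes called higher in muscle 78 were measured in liver, 45 of them above 0 with a median of 0.06, and of the 55 called lower 40 were measured, 20 above and 20 below 0 with a median of −0.01. The difference of the genotype effect between muscle and liver was tested as an interaction on all 20 arrays over 7339 genes measured in both. It passed for 3 genes (0.0409%), 1 with a higher effect in muscle (0.0136%) and 2 with a lower one (0.0273%), and 1091 had an unadjusted p under 0.05. *Vcpip1*, a deubiquitinase that acts in Golgi reassembly, had an effect of 0.49 in muscle and −0.85 in liver (difference 1.34, SE 0.22, adjusted p = 0.0353 from limma). *Mvd*, of the mevalonate pathway, had −0.41 in muscle and 1.21 in liver (difference −1.62, SE 0.28), and *Tal1*, a transcription factor of blood and endothelium, −0.49 in muscle and 0.53 in liver (difference −1.02, SE 0.18), both at the same adjusted p of 0.0353. None of the 3 was called in muscle by itself. Their probes were dim in muscle, with mean log2 signals of 5.69 for *Vcpip1*, 6.18 for *Mvd* and 5.54 for *Tal1*. With 1 array left out the count ran from 0, as without liver *Adck2*+/- 1, to 129 without muscle *Adck2*+/- 5. The arrays were taken as independent, although both tissues may come from the same 5 mice of a genotype, since the labels do not say which liver and muscle came from 1 mouse. With liver and muscle of the same genotype and number taken as 1 mouse, an assumption made after seeing the data, limma called 0 genes, and 1015 had an unadjusted p under 0.05.

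From the genes that the study names for muscle 25 were listed, of which 24 were measured. Other genes that the study checked by quantitative PCR, such as *Apoa2* and *Trf*, were not in the list. By the brightest probe 5 rose (20.8%, against 1.23% of all genes) and none fell (against 0.653%), 11 lay above 0 and 13 below (median −0.95). The study chose them on these samples, so the counts are not independent evidence. The 5 were *Car3*, *Srp54a*, *Ppp1cb*, *Rbbp7* and *Pdlim5*. Of the others above 0, *Myot*, which encodes myotilin of the Z-disk, was at 1.05 (adjusted p = 0.056), *Lmcd1* at 0.26 (0.624), *Gde1* at 0.25 (0.17), *Cbfb* at 0.18 (0.291), *Gpcpd1* at 0.17 (0.482), and *Fbxo32*, the ubiquitin ligase of muscle atrophy, at 0.17 (0.645), all by the brightest probe. In the limma fit of each probe, another probe was called higher for *Gpcpd1* (1.77, adjusted p = 0.00775), *Cbfb* (1.52, 0.0123) and *Fbxo32* (1.18, 0.0193). Another probe of *Lmcd1* gave 1.34 without overlap of the genotypes and was not called (0.155). The remaining probes of *Cbfb*, *Fbxo32* and *Lmcd1* gave 0.21, 0.35 and 0.27 and were not called. Most of the genes below 0 lay near −1. *Rps26* (−1.10), *Rpl28* (−0.99) and *Mrpl52* (−1.11) encode ribosomal proteins, and *Ndufb2* (−0.94), *Romo1* (−1.01) and *Tomm7* (−0.97) encode proteins of the mitochondrial membranes. *Phpt1*, a histidine phosphatase, was at −0.96 and *Fxyd1*, a regulator of the sodium pump, at −1.04. *Lgals1*, *Anapc13*, *Grcc10* and *Polr2i* were at −0.98, −1.09, −1.02 and −1.07. Their adjusted p-values ran from 0.0718 for *Ndufb2* to 0.158 for *Tomm7*, and none passed. *Cdx4* was not tested, since its probe did not meet the detection filter. By quantitative PCR in muscle, the study reported lower *Ndufb2* and *Tomm7* and higher *Cdx4*. The widest difference among the 24, and among all genes, was that of *Xlr4a*, an X-linked gene of the lymphocyte-regulated family, at −2.49 (SE 0.58, adjusted p = 0.0531), which missed the threshold.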

How the data were processed

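Muscle RNA of 5 *Adck2*+/- and 5 WT samples was measured on Illumina bead arrays. The deposited intensity values are mean probe signals on a linear scale without normalization across arrays. Each intensity has, per the file headers, a detection p-value, which sets it against the negative-control beads. How the authors treated background is not given in the sources used here. The methods name an Affymetrix array, whereas the probe names are Illumina's. A second deposited table held the same intensity values with 2165 of 25697 entries under the name of a different probe, and served as an alternative. Of all probes 23978 had 1 gene symbol in the platform annotation and 1719 had none, and 23962 were matched to RefSeq (GRCm38.p6) by gene number.

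Background was corrected from the detection p-values (neqc of limma 3.58.1 in R 4.3.3, offset 16), followed by quantile normalization of the muscle arrays and log2 transformation. A probe entered if its detection p was below 0.05 on 5 or more of the 10 arrays (12115 probes), and the brightest probe represented each of 8424 genes. Genotypes were compared with lmFit and eBayes, with Benjamini-Hochberg adjustment over all genes and calls at 0.05. Within a genotype the SD had a median of 0.238 (log2). In data simulated on the 8424 genes, the genotype fit called 88.1% of genes changed by 1 on the log2 scale and 0.0973% of unchanged genes. Of genes changed by 0.5 it called 40.3%. The simulated noise was drawn independently for each gene, without shifts that many genes of an array share. These rates therefore need not hold for the real arrays. Figures were drawn in Python 3.11.

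The text names the 15 called genes with the largest change in each direction, called members of the gene lists, and up to 2 members of smallest p of lists with fewer than 2 calls. It also names the 25 listed genes of the study, the 10 probes of smallest p called where the brightest probe of the gene was not, and, of the 10 genes of smallest interaction p, the 3 called. *Larp4b*, *Efr3a*, *C1s1*, *Hacl1*, *Coro2b*, *Pcolce*, *Tcea3*, *Mettl21c*, *Vdac3*, *Acad8*, *Fech*, *Hjv* and *Nr3c1*, called genes outside this rule, and exceptions named beside a count were added after their values were seen. The members and lists were chosen with earlier results of these data known. Alternatives covered background, normalization, filter, probe choice, model, threshold and each array left out. Lists of RNA polymerase subunits (18 measured) and of the circadian clock (14 measured) held no call and are not described further.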

Additional observations from a re-analysis of the deposited data

Results flagged for a closer look

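In 9 of 110 groups of 5 arrays, 1 array lay apart from the other 4 by more than 0.71 of the whole range, which chance gives in about 5% of groups. The slow fibre markers averaged −1.39 on WT 3, against −0.13 to 0.29 on the other WT arrays, and the Z-disk genes −0.64, against −0.04 to 0.10. WT 3 also gave the lowest WT value of *Srp54a*, 7.37 against 8.18 to 8.46, and the highest of *Kcng4*, 10.44 against 9.95 to 10.04. The hepatocyte markers averaged 3.21 on *Adck2*+/- 4, against −1.69 to −0.49 on the other *Adck2*+/- arrays. The adipocyte markers averaged 1.66 on *Adck2*+/- 5, against −0.75 to −0.19. *Adck2*+/- 3 had the highest *Adck2*+/- value of *Car3*, 14.30 against 13.89 to 14.01, and of *Gpbp1l1*, 7.49 against 6.51 to 6.75. *Ddx5* was 7.63 on WT 4 and 6.61 to 6.89 on the other WT arrays.

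The genotype effect differed between muscle and liver, by the interaction in limma at an adjusted p of 0.0353, for *Vcpip1* (1.34 higher in muscle), *Mvd* (−1.62) and *Tal1* (−1.02).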

How the results depend on the processing

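Against 104 genes higher and 55 lower, median scaling gave 79 and 231, no detection filter 52 and 18, each probe tested by itself 464 and 179, the mean of the detected probes of a gene 217 and 98, array weights 175 and 178, trended and robust eBayes 132 and 94, and the fit of all 20 arrays 140 and 354. An adjusted p under 0.10 gave 260 and 330, and under 0.01 gave 1 and 0. Cyclic loess, no background correction, detection on all 10 arrays and the second table gave counts within 1.5 times of both. The methods' t-test with Benjamini-Hochberg adjustment called 0 and 0 paired by replicate number and 1 and 2 unpaired, and 644 and 767 paired or 750 and 1014 unpaired without adjustment. With the replicate block, limma called 0 higher and 0 lower, and 1756 genes had an unadjusted p under 0.05; same-numbered arrays deviated together (correlation over 0.1) in 1 of 5 pairs, and 2 of 10 arrays correlated best with their own number, so the numbers were not used to pair arrays. Leaving out 1 array gave 13 to 221 higher (without WT 5 and without *Adck2*+/- 5) and 1 to 476 lower (without the same arrays). Alternatives chosen after seeing the data gave 109 and 94 without WT 3 and *Adck2*+/- 5, 16 and 2 without WT 1 and *Adck2*+/- 4, 0 and 0 with the probe measure, which followed genotype closely, as a covariate, and 0 and 1 with the gene span measure as a covariate. The cause of these shifts was not tested.

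The 3 genes whose effect differed between tissues became 1 with median scaling, 14 with no detection filter, 34 with array weights, 0 with the replicate block, 0 to 129 with 1 array left out, and, chosen after seeing the data, 0 with liver and muscle of 1 genotype and number taken as 1 mouse. The probe measure (0.0935) was 0.0474 to 0.113 under the alternatives and 0.0724 to 0.105 with 1 array left out. The span measure (0.152) was 0.0679 to 0.158, and 0.114 to 0.203 with 1 array left out, where it passed only without *Adck2*+/- 5. The comparison by protein length was not run, since no protein sequences were used here.

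*Eif4g2* was at −0.0071 in the fit of all 20 arrays, where its other probe was the brightest. Among genes not called, *Cul4a* was at 0.56 and *Mgat4b* at 0.33 with the mean of probes, *Cul4a* at 0.011 without WT 3 and *Adck2*+/- 5 and at −0.065 to 0.089 with 1 array left out, *Cnot2* at −0.026 with median scaling and at −0.012 to 0.0829 with 1 array left out, *Lmcd1* at −0.041 without WT 3 and *Adck2*+/- 5 and at −0.0447 to 0.381 with 1 array left out, and *Psme4* at −0.0097 with median scaling and −0.00247 with cyclic loess. With median scaling the medians of 7 of 45 lists changed sign, all of them within 0.0449 of 0 otherwise. Of 72 called genes named, the value kept direction and call in 1206 combinations of gene and setting and lost the call in 725. The number of arrays and, for dim probes, signal near background limit the precision.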
